A study of Mus musculus with 9 samples.

Results

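The interferon-induced gene families described here are 80 of the 32531 genes counted in ribosome-bound and total RNA of the mouse cerebral cortex. They were chosen by gene symbol alone. The symbols cover the Ifit, Ifitm, Oas, Gbp, Irf and Irgm families, genes named Ifi or Isg, signal transducers such as Stat2, the RNA sensors Ifih1, Ddx58 and Dhx58, and single effectors such as Rsad2, Usp18, Bst2, Mx1, Mx2, Rtp4 and Eif2ak2. Sorted by role they comprise 11 transcription factors, 3 Irf2-binding proteins, 5 genes of RNA sensing, 12 Oas genes, 3 Ifit genes, 7 Ifitm genes, 18 GTPases, 4 genes of the PYHIN Ifi200 family, 2 genes of the Isg15 system and 15 other effectors. A choice by symbol also takes in genes that share little but a name with the antiviral families, such as Irf2bp1, Irf2bp2, Irf2bpl and Isg20l2.

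Each group held 3 RNA sequencing libraries from cerebral cortex of untreated adult mice that carried the Abcb1a-EGFP/Rpl10a transgene of line ES3026. In this line a ribosomal protein fused to a green fluorescent protein is made under the control of Abcb1a, which encodes the P-glycoprotein transporter of the blood-brain barrier. Antibodies against the fluorescent protein then pull out the tagged ribosomes with the mRNA they carry, a method called translating ribosome affinity purification. The groups were immunoprecipitated RNA extracted by an investigator with the initials ES (ES IP), immunoprecipitated RNA extracted by an investigator with the initials JL (JL IP), and total RNA of the unpurified homogenate extracted by JL (JL input). All 3 groups carried the transgene. There was no ES input, and the labels do not say whether a library came from 1 mouse or from several, so the p-values reflect variation among these samples alone, which may be technical.

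Interferons are secreted proteins, and cells release type I interferons on sensing viral nucleic acid. Type I interferons bind Ifnar1 and Ifnar2, and type II interferon binds Ifngr1 and Ifngr2. The receptors use Janus kinases to activate transcription factors such as Stat2, which with Irf9 binds the interferon-stimulated response element in promoters of antiviral genes. The gamma-activated site is the corresponding element of the response to type II interferon. Brain endothelium carries these receptors, and interferon acts there on the tightness of the barrier and on its resistance to viruses.

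The libraries held 31987470 to 46598478 gene counts, and a count of 3 corresponded to 0.0644 to 0.0938 CPM, the unit of counts scaled to library size. All 18 genes of a pan-endothelial list were higher in JL IP than in JL input, with a median log2 fold change of 7.87, whereas 12 of 12 neuron genes and 18 of 20 microglia genes were lower. Of 6 fibroblast genes 4 were higher and 2 lower, and of 6 smooth muscle genes 3 were higher and 1 lower. Of 8 pericyte genes 1 was higher and 5 lower, and of 6 tested perivascular macrophage genes 2 were higher and 0 lower. Among all 17357 tested genes the shares were 36.7% higher and 37.4% lower. The log2 fold changes of the 6 macrophage genes centred on a median of -0.59. Without overlap of the groups, 2 of these genes lay above JL input and 2 below it. The fibroblast genes summed to 106 to 174 CPM in the JL IPs and 50.8 to 52.9 CPM in the JL inputs. The part of such cells in the members' levels was not tested. The pan-endothelial genes summed to 824 to 1190 CPM in the ES IPs, 7896 to 8201 CPM in the JL IPs and 57.5 to 67.6 CPM in the JL inputs. The neuron genes summed to 16950 to 18720 CPM in the ES IPs, 2128 to 2877 CPM in the JL IPs and 16750 to 17600 CPM in the JL inputs. The ES IPs thus held endothelial mRNA above the JL inputs together with neuronal mRNA at a level like theirs. In such bulk RNA, fewer cells of a type and less RNA per cell cannot be told apart, and the investigator cannot be told apart from any other difference between the ES and JL extractions.

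Most of the families were most abundant in the JL IPs, intermediate in the ES IPs and lowest in the JL inputs. The 80 members summed to 1324 to 1758 CPM in the ES IPs, 6604 to 7954 CPM in the JL IPs and 456 to 465 CPM in the JL inputs. A mean of at least 10 CPM was reached by 39 members in ES IP, by 49 in JL IP and by 9 in JL input. A filter on low counts, which can be passed through 1 group alone, admitted 66 members to the test of JL IP against JL input. With edgeR's quasi-likelihood test and Benjamini-Hochberg adjustment over all tested genes, 60 of the 66 were higher at an adjusted p under 0.05, 1 was lower and 5 were called in neither direction. Across all 17357 tested genes, 36.7% were called higher and 37.4% lower. The members' median log2 fold change was 4.89, against -0.09 over all tested genes. Levels of the groups did not overlap for 60 members that were higher and 1 that was lower, where 38.7% and 42.2% of all tested genes separated in those directions.

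**Figure D1:**
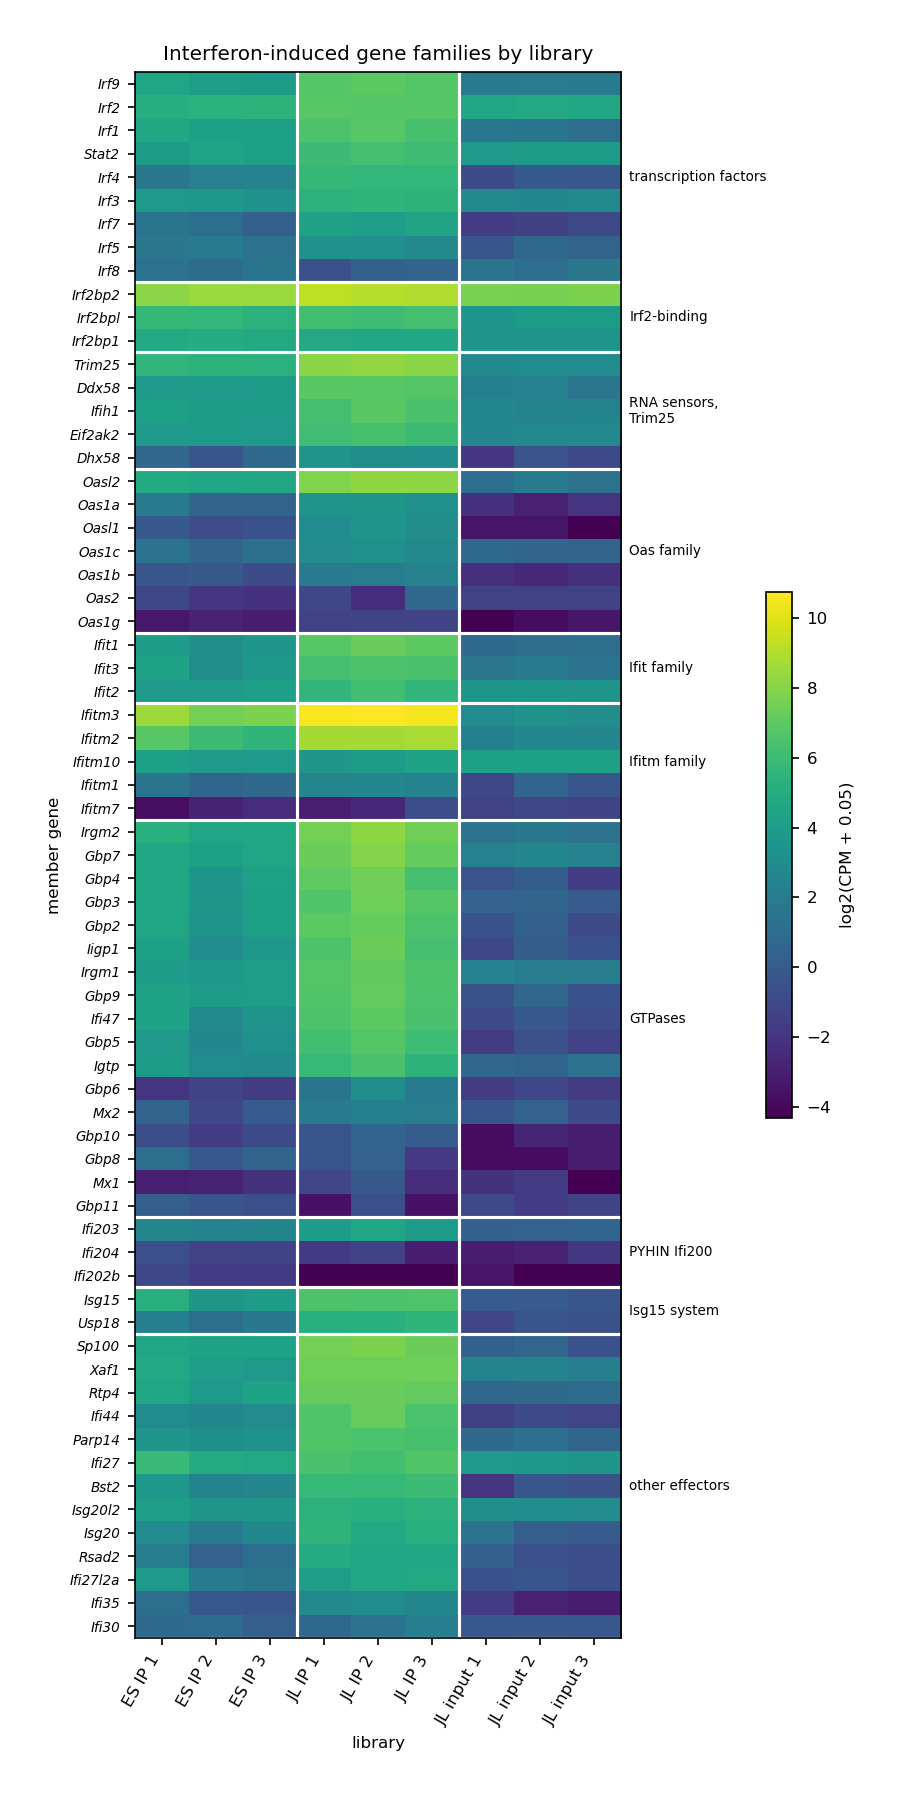
Level of 67 of the 69 members tested in at least 1 comparison, as log2(CPM + 0.05) by library, ordered by role and then by mean level in the JL IPs. Columns are the 3 ES IP, 3 JL IP and 3 JL input libraries. The JL IP columns are the brightest for most rows, and Irf8, Ifitm10 and Ifi202b are among the rows that differ from that pattern.

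The order was the same gene by gene. Of the 63 members tested in all 3 comparisons, 54, or 85.7%, had every JL IP library above every ES IP library and every ES IP library above every JL input library. That order held for 14.7% of all genes tested in the 3 comparisons. The 9 members without it were Irf8, Irf2bp1, Oas1c, Oas2, Ifitm10, Gbp6, Gbp11, Mx2 and Ifi30. Per kilobase of exon, the most abundant member in the JL IPs was Ifitm3 with 2365 CPM per kb. Ifitm2 followed with 656, Isg15 with 123, Irf2bp2 with 109.7, Rtp4 with 71.2 and Bst2 with 64.0 CPM per kb. Of the members tested against JL input, the lowest were Gbp11 with 0.0802 and Ifitm7 with 0.102 CPM per kb.

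Both short motifs searched in the promoters were more frequent in the families than in all genes. RefSeq promoters of build GRCm38.p6, from 250 bases before to 50 bases after an annotated start, were listed for 57 of the 80 members. The core of the interferon-stimulated response element, searched on both strands as TTTC, then any 2 bases, then TTTC, occurred in 26 of these 57 genes, or 45.6%, and in 3.99% of all 27025 genes with a promoter. Counted by promoter, it occurred in 38.2% of 68 member promoters and in 3.44% of all 32851 promoters. The gamma-activated site, searched as TTCNNNGAA, which reads the same on both strands, occurred in 29.8% of the members and 9.55% of all genes. Of 9 GTPases with a listed promoter, 8 held the response element core, against 2 of 9 transcription factors and 2 of 10 other effectors. These matches describe sequence only, and overlapping matches were counted separately.

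The 5 promoters shown carry the pattern and an exception to it, with matches to the response element core in capitals. Each runs 5′ to 3′ on the strand of its gene and ends 50 bases into the transcript. Isg15 (chr4:156200769-156201068, minus strand) has 3 overlapping matches, the first beginning at base -78 from the start. Ifit1 (chr19:34640639-34640938, plus strand) has 2, beginning at -104 and -85, and Gbp2 (chr3:142620413-142620712, plus strand) has 1, at -59. In Ifitm3 (chr7:141010695-141010994, minus strand) both matches lie just after the start. Oasl1 (chr5:114922990-114923289, plus strand) has no match in this window. It had the largest estimated log2 fold change of the members in JL IP over JL input (8.29 ± 0.50), on at most 2 counts in a JL input library. Ifi44 was close to it (8.11 ± 0.30).
Isg15: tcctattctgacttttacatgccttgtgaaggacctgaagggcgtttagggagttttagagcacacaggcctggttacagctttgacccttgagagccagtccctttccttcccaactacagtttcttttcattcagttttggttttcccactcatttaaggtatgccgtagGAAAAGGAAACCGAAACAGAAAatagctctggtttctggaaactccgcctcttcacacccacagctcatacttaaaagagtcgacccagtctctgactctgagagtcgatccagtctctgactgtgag
Ifit1: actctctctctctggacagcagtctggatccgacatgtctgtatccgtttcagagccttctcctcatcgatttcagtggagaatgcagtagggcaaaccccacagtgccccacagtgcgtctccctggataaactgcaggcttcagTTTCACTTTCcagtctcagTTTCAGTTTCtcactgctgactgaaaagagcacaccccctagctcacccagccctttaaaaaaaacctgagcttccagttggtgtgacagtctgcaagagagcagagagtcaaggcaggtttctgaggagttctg
Gbp2: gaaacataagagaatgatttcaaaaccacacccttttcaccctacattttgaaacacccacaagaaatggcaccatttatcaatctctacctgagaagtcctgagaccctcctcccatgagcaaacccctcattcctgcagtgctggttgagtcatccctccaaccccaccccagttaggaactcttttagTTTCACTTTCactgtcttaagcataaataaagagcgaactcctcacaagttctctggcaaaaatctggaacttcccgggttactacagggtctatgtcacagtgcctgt
Ifitm3: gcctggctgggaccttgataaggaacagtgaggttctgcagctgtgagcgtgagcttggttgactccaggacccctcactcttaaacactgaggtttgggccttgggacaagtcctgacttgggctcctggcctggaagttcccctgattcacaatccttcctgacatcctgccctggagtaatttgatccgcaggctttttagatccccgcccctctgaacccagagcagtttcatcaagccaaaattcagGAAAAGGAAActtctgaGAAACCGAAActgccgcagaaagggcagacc
Oasl1: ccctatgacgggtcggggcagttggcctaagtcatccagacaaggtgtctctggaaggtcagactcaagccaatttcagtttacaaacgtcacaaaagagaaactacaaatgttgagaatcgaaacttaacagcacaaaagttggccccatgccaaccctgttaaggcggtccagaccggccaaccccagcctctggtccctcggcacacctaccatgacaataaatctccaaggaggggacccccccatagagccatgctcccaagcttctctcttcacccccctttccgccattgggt

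**Figure D2:**
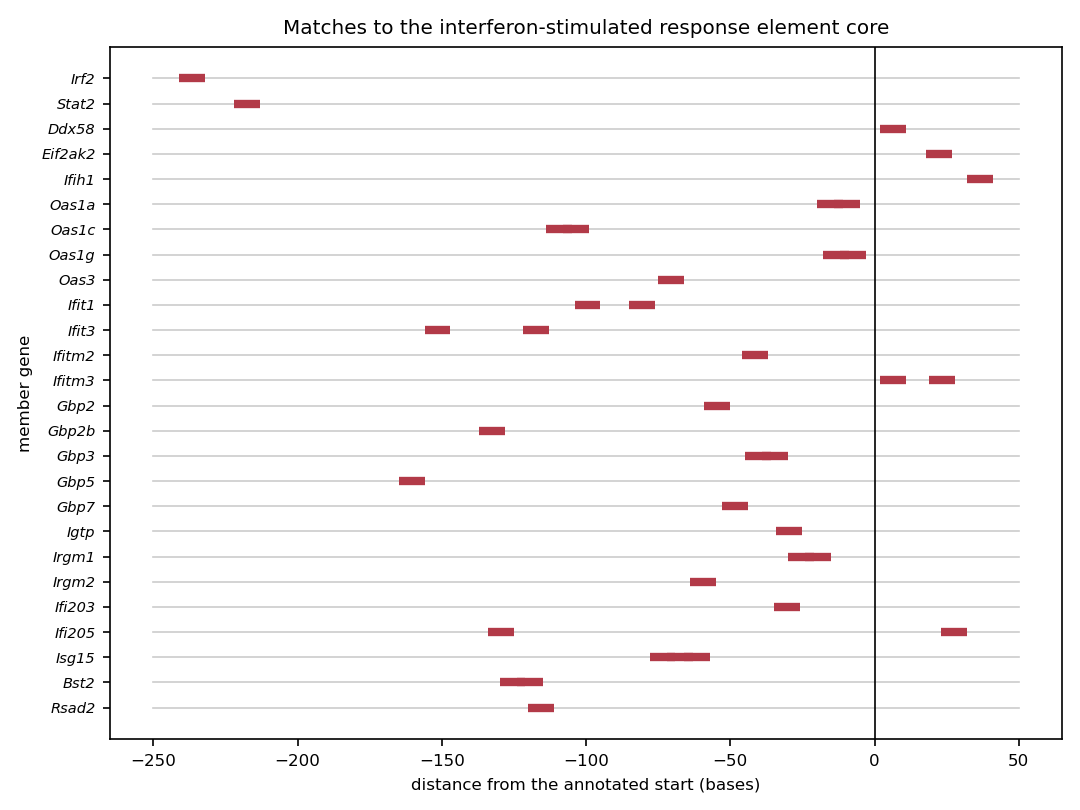
Position of each match to the response element core, on either strand, in the listed promoters of the 26 members that have one, grouped by role. The horizontal axis is the distance from the annotated start in bases, grey lines span the searched window and red bars mark the 10 bases of a match. Of 38 matches, 30 begin between 170 and 10 bases before the start, and 6 begin at or after it.

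Members with and without the motif both rose in the JL IPs. All 23 tested members with a match in a listed promoter were called higher in JL IP than in JL input, with a median log2 fold change of 5.13 and a range of 2.12 to 7.65. Of the 25 tested members with a listed promoter and no match, 22 were called higher, with a median of 4.49. Over all tested genes with a listed promoter, 48.2% of 436 genes with a match and 39.7% of 11465 genes without were called higher.

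Among the transcription factors, 10 of 11 were higher in JL IP than in JL input and Irf8 was lower. Irf1, an early interferon-induced factor, had 25.1, 18.8 and 18.1 CPM in the ES IPs, 92.3, 113 and 81.6 CPM in the JL IPs, and 2.96, 2.81 and 2.11 CPM in the JL inputs. Its JL IP libraries lay above the ES IP ones and these above the JL inputs, without overlap (log2 fold change 5.18 ± 0.18, adjusted p = 3.42e-08 for JL IP against JL input). Irf9, the DNA-binding partner of Stat2, stood 30.7-fold higher in JL IP than in JL input, and Stat2 4.77-fold.

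Irf4, better known as a lymphocyte factor, had the largest fold change of the transcription factors. It measured 3.26, 4.72 and 5.08 CPM in the ES IPs, 52.6, 51.3 and 50.2 CPM in the JL IPs, and 0.491, 0.918 and 0.805 CPM in the JL inputs. The JL IP libraries were nearly equal to each other and far above the rest (log2 fold change 6.12 ± 0.21, adjusted p = 2.67e-08 against JL input). Irf7, the factor that amplifies type I interferon production, had 2.78, 2.12 and 1.20 CPM in the ES IPs, 20.3, 17.2 and 22.2 CPM in the JL IPs, and 0.275, 0.319 and 0.457 CPM in the JL inputs, with no overlap of groups.

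Irf8, a factor of microglia and other myeloid cells, went the other way. It had 2.37, 1.92 and 2.82 CPM in the ES IPs, 0.582, 1.16 and 1.35 CPM in the JL IPs, and 2.73, 2.17 and 3.13 CPM in the JL inputs. The JL IP libraries were the lowest of all 9, and the ES IP and JL input libraries overlapped. JL IP was lower than JL input (log2 fold change -1.37 ± 0.41, adjusted p = 0.015), a call lost without JL input replicate 1 (adjusted p = 0.0573) or replicate 3 (adjusted p = 0.0745). The microglia list was also lowest in the JL IPs: its 20 genes summed to 96.4 to 104 CPM in the ES IPs, 55.7 to 69.1 CPM in the JL IPs and 180 to 188 CPM in the JL inputs. Unlike Irf8, the list was lower in every ES IP library than in every JL input library. The part of microglial RNA in the Irf8 values was not tested.

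The 3 Irf2-binding proteins, transcriptional co-repressors that partner Irf2, had the smallest median fold change of the roles that were called throughout. Irf2bp2 had 284, 354 and 356 CPM in the ES IPs, 623, 547 and 502 CPM in the JL IPs, and 212, 204 and 222 CPM in the JL inputs, with JL IP above JL input in every library (log2 fold change 1.39 ± 0.09, adjusted p = 1.69e-06). Irf2bpl measured 52.7, 51.3 and 41.8 CPM in the ES IPs, 74.0, 66.5 and 78.2 CPM in the JL IPs, and 11.9, 14.7 and 14.7 CPM in the JL inputs (log2 fold change 2.40 ± 0.12, adjusted p = 2.82e-07 for the same comparison). Irf2bp1, with 29.7, 32.8 and 28.6 CPM in the ES IPs, 27.6, 25.3 and 24.7 CPM in the JL IPs, and 12.03, 11.2 and 11.2 CPM in the JL inputs, was higher in JL IP than in JL input (log2 fold change 1.17 ± 0.12, adjusted p = 2.22e-05), but its ES IP libraries all lay above the JL IP ones. The neighbour Gm26759 overlaps 20.5% of Irf2bp2 exon sequence on the other strand, and the strand setting of the counting is not given in the sources used here.

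All 5 genes of cytoplasmic RNA sensing were higher in JL IP than in JL input. Trim25, the ubiquitin ligase that activates RIG-I, had 49.1, 42.9 and 40.2 CPM in the ES IPs, 273, 311 and 275 CPM in the JL IPs, and 7.52, 7.84 and 7.59 CPM in the JL inputs, and its replicates were tight within each group (log2 fold change 5.23 ± 0.09, adjusted p = 1.84e-09). Ddx58, which encodes RIG-I, had 13.9, 14.3 and 14.5 CPM in the ES IPs, 120.1, 113 and 105 CPM in the JL IPs, and 4.47, 4.97 and 2.94 CPM in the JL inputs (log2 fold change 4.77 ± 0.19, adjusted p = 6.38e-08). The receptor of long double-stranded RNA, Ifih1, was 16.4-fold higher and its relative Dhx58 21.5-fold higher. Eif2ak2, the kinase PKR that stops translation on double-stranded RNA, changed least: 14.3, 14.6 and 13.6 CPM in the ES IPs, 70.7, 83.2 and 64.5 CPM in the JL IPs, and 6.26, 7.44 and 6.81 CPM in the JL inputs (log2 fold change 3.41 ± 0.13, adjusted p = 6.52e-08). No library of JL IP overlapped JL input for any of the 5.

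**Figure D3:**
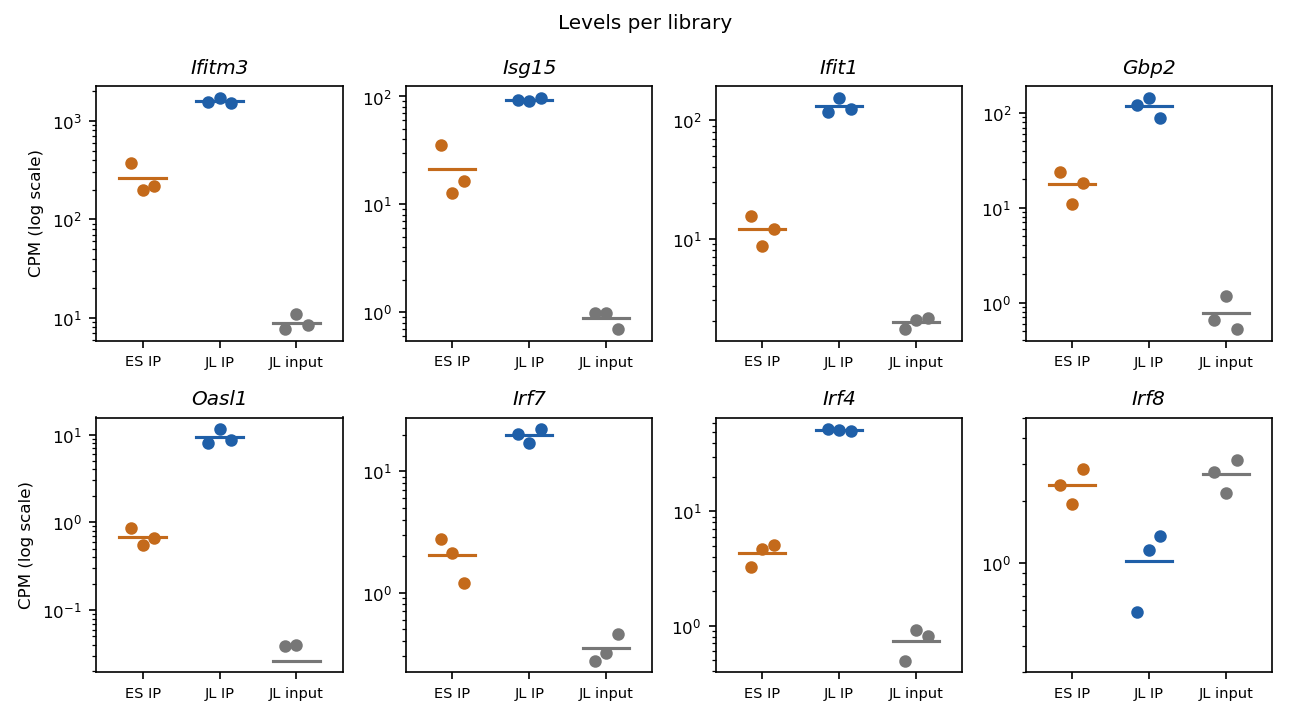
Level in CPM, on a log scale with a separate range for each gene, of 8 members in the ES IP, JL IP and JL input libraries (points) with the group mean (line). Irf8 is lowest in the JL IPs, while the other panels show JL IP above ES IP above JL input without overlap. JL input replicate 3 of Oasl1 has no count and is not drawn.

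The Oas family split into genes with clear levels and genes near 0. Oas enzymes make the 2′-5′-linked oligoadenylate that activates RNase L, and the Oasl proteins are their relatives. Of the 12 genes, 7 were tested and 6 were higher in JL IP than in JL input. Oasl2 had 30.3, 23.3 and 25.6 CPM in the ES IPs, 237, 305 and 291 CPM in the JL IPs, and 2.24, 3.49 and 2.44 CPM in the JL inputs (log2 fold change 6.67 ± 0.19, adjusted p = 1.09e-08 for JL IP against JL input). Oasl1 had 0.863, 0.546 and 0.655 CPM in the ES IPs, 8.08, 11.5 and 8.67 CPM in the JL IPs, and 0.0392, 0.0399 and 0 CPM in the JL inputs, the largest change of any member (log2 fold change 8.29 ± 0.50, adjusted p = 8.81e-07), on input levels of at most 2 counts. Oas1a had 3.60, 1.46 and 1.42 CPM in the ES IPs, 11.2, 12.6 and 9.31 CPM in the JL IPs, and 0.177, 0.0798 and 0.196 CPM in the JL inputs (log2 fold change 6.17 ± 0.35, adjusted p = 6.06e-07), although 57.6% of its 50-base words also occur in another gene, mainly Oas1g. Oas2 stood apart with 0.432, 0.197 and 0.181 CPM in the ES IPs, 0.411, 0.145 and 1.59 CPM in the JL IPs, and 0.334, 0.339 and 0.348 CPM in the JL inputs: JL IP replicate 3 was the highest library, replicate 2 the lowest, and the groups overlapped (log2 fold change 1.05 ± 0.82, adjusted p = 0.271). Its direction turned to -0.30 without JL IP replicate 3.

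Oas1b had 3.70, 3.97 and 4.86 CPM and Oas1c 7.57, 9.46 and 6.81 CPM in the JL IPs, and both were called higher than in JL input. The 5 Oas genes outside that test had few counts. Oas1d, Oas1f and Oas1h had no count in any IP library. Oas1e had 12 counts in ES IP replicate 3 and none in the other IP libraries. Oas3 had at most 20 counts in a library, in JL input replicate 1. The tested and untested genes lie side by side: the 10 Oas1, Oas2 and Oas3 genes share chr5:120730333-120921652 (GENCODE M21, mm10), and Oasl1 and Oasl2 share chr5:114896936-114937915.

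The 3 Ifit genes, whose proteins bind viral RNA ends, lie within 99.3 kb at chr19:34550694-34650009, and all were higher in JL IP than in JL input. Ifit1 had 15.6, 8.57 and 12.1 CPM in the ES IPs, 116, 155 and 124 CPM in the JL IPs, and 1.71, 2.06 and 2.11 CPM in the JL inputs. Ifit3 had 20.2, 8.83 and 13.4 CPM in the ES IPs, 80.5, 93.9 and 87.5 CPM in the JL IPs, and 3.02, 3.65 and 2.63 CPM in the JL inputs. Ifit2 had 14.1, 16.3 and 18.3 CPM in the ES IPs, 48.3, 72.7 and 48.9 CPM in the JL IPs, and 12.6, 12.8 and 11.0 CPM in the JL inputs. In each of them the JL IP libraries lay above both other groups. The log2 fold changes of JL IP over JL input were 6.08 ± 0.16 for Ifit1, 4.81 ± 0.14 for Ifit3 and 2.23 ± 0.18 for Ifit2. Ifit2 had 2 promoters listed and no match to the response element core in either, while Ifit1 and Ifit3 have 2 matches each. Of the 50-base words of Ifit3, 51.2% occur in another gene, mainly the copy Ifit3b, so its level may be a lower estimate.

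The Ifitm family, small membrane proteins that restrict viral entry, held the 2 members most abundant per kilobase in the JL IPs and several that were barely detected. Ifitm3 (chr7:141009586-141010770) had 369.7, 197 and 217 CPM in the ES IPs, 1569, 1726 and 1516 CPM in the JL IPs, and 7.65, 10.9 and 8.37 CPM in the JL inputs. Ifitm2, in the same cluster, had 116, 63.7 and 47.4 CPM in the ES IPs, 425, 414 and 449.9 CPM in the JL IPs, and 4.57, 6.64 and 6.28 CPM in the JL inputs. In both genes every JL IP library lay far above every JL input library, with the ES IP libraries between them (log2 fold change 7.48 ± 0.16, adjusted p = 2.79e-09 for JL IP against JL input of Ifitm3, and log2 fold change 6.20 ± 0.15, adjusted p = 4.78e-09 for Ifitm2). Of the exon sequence of Ifitm2, 40.9% overlaps the transcript Gm45717. Ifitm1 was 6.79-fold higher in JL IP than in JL input.

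Ifitm10 and Ifitm7 did not follow. Ifitm10 had 18.2, 14.4 and 14.3 CPM in the ES IPs, 12.4, 15.4 and 20.6 CPM in the JL IPs, and 18.9, 18.2 and 18.6 CPM in the JL inputs, with overlapping groups (log2 fold change -0.20 ± 0.18, adjusted p = 0.332), and without JL IP replicate 3 it was called lower (log2 fold change -0.41, adjusted p = 0.0236). Ifitm7, which lies on chromosome 16 away from the cluster, had 0.0240, 0.0874 and 0.136 CPM in the ES IPs, 0.0685, 0.116 and 0.540 CPM in the JL IPs, and 0.334, 0.419 and 0.370 CPM in the JL inputs, also with overlap (log2 fold change -0.64 ± 0.79, adjusted p = 0.482). Without JL IP replicate 3, the highest of its group in both genes, Ifitm7 too was called lower (log2 fold change -1.96, adjusted p = 0.0258). Ifitm5 had at most 2 counts in a library and Ifitm6 none in the JL IPs, at least 6.77-fold below the JL inputs when 3 counts over the JL IPs are taken as the limit.

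Of the 18 GTPases, 16 were tested and 14 were higher in JL IP than in JL input, with a median log2 fold change of 5.71 (range -0.72 to 7.65). Guanylate-binding proteins and immunity-related GTPases attack the membranes around intracellular pathogens. Irgm2 had 38.7, 24.3 and 25.8 CPM in the ES IPs, 197, 294 and 179.8 CPM in the JL IPs, and 2.67, 3.43 and 2.39 CPM in the JL inputs, the highest level per kilobase of the class (log2 fold change 6.30 ± 0.24, adjusted p = 6.05e-08). Gbp2 had 23.6, 11.0 and 18.2 CPM in the ES IPs, 122, 145 and 89.1 CPM in the JL IPs, and 0.648, 1.18 and 0.522 CPM in the JL inputs (log2 fold change 7.23 ± 0.30, adjusted p = 9.67e-08). Gbp5 had 14.5, 6.19 and 9.51 CPM in the ES IPs, 71.6, 104 and 68.1 CPM in the JL IPs, and 0.275, 0.579 and 0.348 CPM in the JL inputs, the largest change of the class (log2 fold change 7.65 ± 0.29, adjusted p = 5.03e-08). In all 3 genes the groups were separate and JL IP replicate 2 was the highest library.

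The genes called in neither direction were Gbp11 and Mx1. Gbp11 had 1.15, 0.721 and 0.587 CPM in the ES IPs, 0.0342, 0.580 and 0.0337 CPM in the JL IPs, and 0.471, 0.259 and 0.370 CPM in the JL inputs: JL IP replicate 2 alone carried 20 of the 22 JL IP counts, and the groups overlapped (log2 fold change -0.72 ± 0.99, adjusted p = 0.528). Without that library Gbp11 was called lower (log2 fold change -3.31, adjusted p = 0.0074). Mx1, the dynamin-like antiviral GTPase, had 0.0719, 0.0874 and 0.181 CPM in the ES IPs, 0.411, 0.870 and 0.135 CPM in the JL IPs, and 0.177, 0.259 and 0 CPM in the JL inputs and overlapped as well (log2 fold change 1.68 ± 1.07, adjusted p = 0.183). Its relative Mx2 was 4.69-fold higher in JL IP. The annotation used here lists Mx2, Gbp11 and also Oas1b as polymorphic pseudogenes, not as protein-coding genes. Gbp8 was tested only in the ES comparisons, and Gbp2b, with no count in the JL IPs and 9 in the ES IPs, in none.

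The Gbp genes form 2 clusters whose members did not all share a level. Gbp5, Gbp7, Gbp3, Gbp2b and Gbp2 occupy chr3:142493978-142638008, and Gbp8, Gbp9, Gbp4, Gbp10, Gbp6 and Gbp11 occupy chr5:105014150-105346472. Within the second cluster, mean JL IP levels per kilobase were 21.3 CPM per kb for Gbp9 and 17.7 for Gbp4, but 0.829 CPM per kb for Gbp6, 0.276 for Gbp10 and 0.0802 for Gbp11. Of the 50-base words of Gbp10 and Gbp6, 84.1% and 70.7% occur in another gene. Reads of these genes may thus not have been counted, and their levels may be lower estimates.

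Of the PYHIN Ifi200 family, a cluster of DNA-binding innate sensors on chromosome 1, Ifi203 alone was tested for JL IP against JL input. It had 5.87, 5.14 and 5.56 CPM in the ES IPs, 16.2, 24.2 and 15.1 CPM in the JL IPs, and 1.16, 1.28 and 1.44 CPM in the JL inputs, with separate groups (log2 fold change 3.84 ± 0.25, adjusted p = 1.27e-06). Ifi202b had 18, 12 and 11 counts in the ES IPs, no count in the JL IPs, and 2, 0 and 0 counts in the JL inputs. Ifi205 had no count in any library.

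Isg15, the ubiquitin-like modifier, and Usp18, the protease that removes it and damps receptor signalling, were both higher in JL IP than in JL input. Isg15 (chr4:156199424-156200818) had 35.3, 12.8 and 16.3 CPM in the ES IPs, 91.9, 90.3 and 97.6 CPM in the JL IPs, and 0.981, 0.978 and 0.696 CPM in the JL inputs (log2 fold change 6.71 ± 0.14, adjusted p = 2.79e-09). Usp18 had 4.53, 2.12 and 3.41 CPM in the ES IPs, 36.5, 38.4 and 46.9 CPM in the JL IPs, and 0.392, 0.718 and 0.609 CPM in the JL inputs (log2 fold change 6.14 ± 0.23, adjusted p = 4.78e-08). The groups were separate in both genes, and ES IP replicate 1 was above the other ES IP libraries.

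All 13 tested genes among the 15 other effectors were higher in JL IP than in JL input. Ifi44, an inhibitor of viral replication, had 7.96, 5.88 and 7.75 CPM in the ES IPs, 100.3, 151 and 88.4 CPM in the JL IPs, and 0.314, 0.519 and 0.391 CPM in the JL inputs (log2 fold change 8.11 ± 0.30, adjusted p = 4.36e-08). Rtp4, a chaperone of membrane receptors, had 24.5, 13.6 and 21.0 CPM in the ES IPs, 154, 159.6 and 141 CPM in the JL IPs, and 1.53, 1.78 and 1.96 CPM in the JL inputs (log2 fold change 6.44 ± 0.12, adjusted p = 2.23e-09). Bst2, or tetherin, which holds budding virus at the cell surface, had 13.3, 5.46 and 6.37 CPM in the ES IPs, 53.7, 55.7 and 63.8 CPM in the JL IPs, and 0.196, 0.758 and 0.609 CPM in the JL inputs (log2 fold change 6.79 ± 0.33, adjusted p = 2.18e-07). Each of these was separate between all 3 groups. Ifi30, a lysosomal thiol reductase of antigen-presenting cells, changed least (1.75, 1.90 and 1.13 CPM in the ES IPs, 1.68, 2.58 and 4.25 CPM in the JL IPs, and 0.844, 0.878 and 0.805 CPM in the JL inputs), with JL IP above JL input (log2 fold change 1.75 ± 0.43, adjusted p = 0.00571) while the ES IP and JL IP libraries overlapped.

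**Figure D4:**
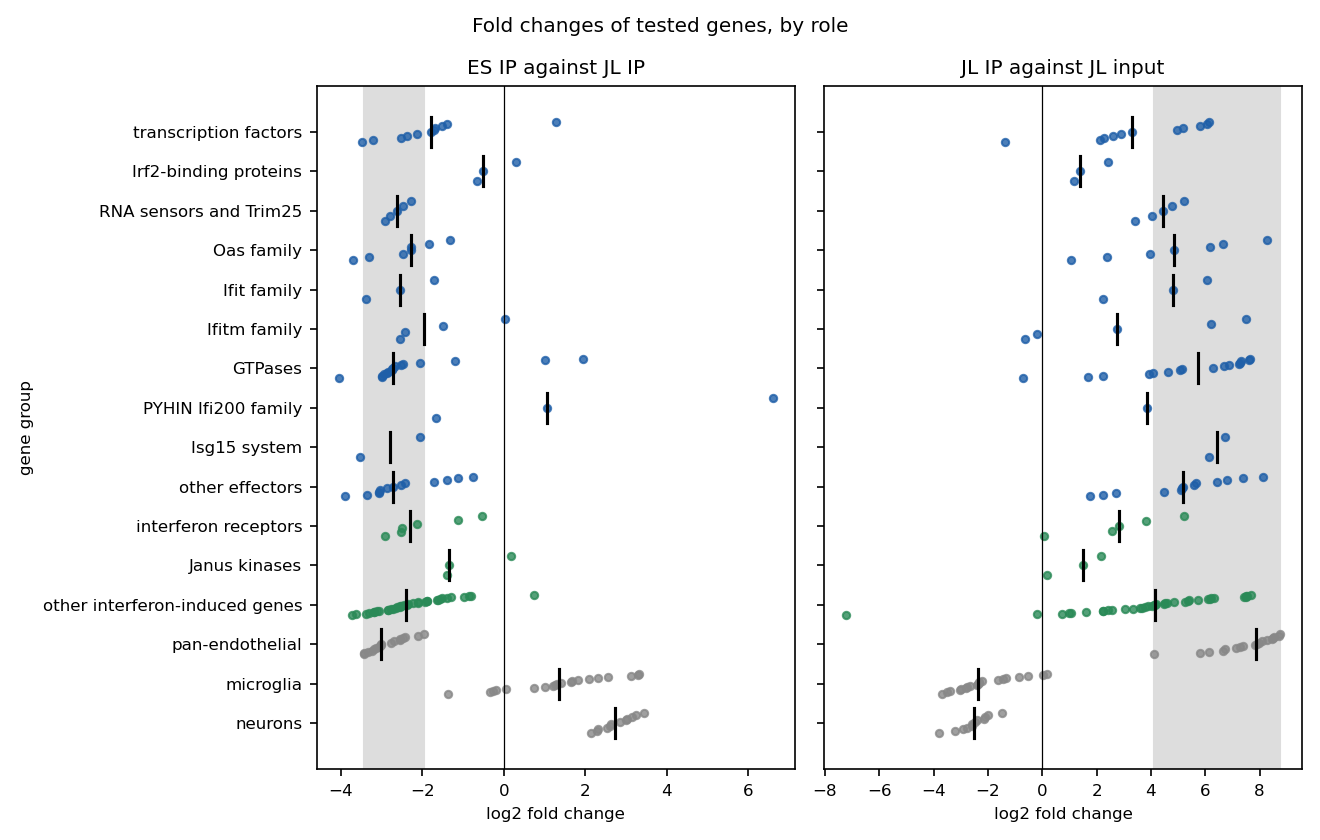
Log2 fold change of each tested gene (points) and the median (black line) for ES IP against JL IP (left) and JL IP against JL input (right), by role of the members (blue), for other genes of the interferon pathway (green) and for cell type lists (grey). The grey band is the range of the 18 pan-endothelial genes. Most members lie left of 0 on the left and right of 0 on the right, as the pan-endothelial genes do, and the neuron genes lie on the opposite sides. The medians of the microglia genes lie on the opposite sides too, with single genes across 0.

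Set beside the pan-endothelial genes, no tested member had a larger fold change in JL IP over JL input than the highest of them. The 18 pan-endothelial genes ranged from 4.13 to 8.76, and 39 of the 66 tested members lay within that range, 27 below it and 0 above it. The lower edge was set by Cd34 alone: without it the range began at 5.80, and 23 members lay within it and 43 below it, an alternative chosen after seeing the data. Abcb1a, whose regulatory sequence drives the tag, had a log2 fold change of 7.75 ± 0.16. Below the range of all 18 genes were Stat2, Irf2, Irf3, Irf5, Irf8 and all 3 Irf2-binding proteins, together with members of most other families such as Ifih1, Eif2ak2, Ifit2, Mx2 and Ifi27.

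In ES IP against JL IP, 67 members were tested, 57 were lower, 2 were higher and 8 were called in neither direction. Of all 16212 tested genes, 28.2% were called lower and 29.7% higher. The members' median log2 fold change was -2.46, against 0.03 over all tested genes. The groups did not overlap for 58 members that were lower and 4 that were higher, where 33.9% and 32.0% of all tested genes separated in those directions. The same 18 pan-endothelial genes were all lower, with a median of -3.01 and a range of -3.43 to -1.96, and 12 of 12 neuron genes were higher.

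Against that endothelial range, 38 of the 67 members lay within it, 24 above it and 5 below it. The 5 with the larger deficit were Gbp6 (-4.05 ± 0.55), Ifi44 (-3.90 ± 0.25), Oasl1 (-3.69 ± 0.35), Usp18 (-3.52 ± 0.29) and Irf4 (-3.48 ± 0.23). Gbp6 had 0.192, 0.372 and 0.271 CPM in the ES IPs, 2.88, 8.18 and 3.74 CPM in the JL IPs, and 0.275, 0.419 and 0.261 CPM in the JL inputs, so its ES IP libraries overlapped the JL inputs. Among the 24 with a smaller deficit or none were the Irf2-binding proteins, Irf2, Irf3, Irf5, Stat2, Ifit2, Ifi27 and Isg20l2. Isg15 (-2.04 ± 0.32) and Ifitm3 (-2.54 ± 0.24) lay within the range. No test was made of a difference between members and endothelial genes.

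The 2 members called higher in ES IP were Irf8 and Ifi202b. Irf8 was 2.43-fold higher (log2 fold change 1.28 ± 0.49, adjusted p = 0.0433), but the call was lost on leaving out any library other than JL IP replicate 3, with adjusted p between 0.0582 and 0.162. Ifi202b encodes a PYHIN protein that binds DNA. It was at least 9.68-fold higher in ES IP when 3 counts over the JL IPs are taken as the limit. The adjusted p of 0.00506 belongs to the edgeR fit, not to this bound. Ifi202b passed the filter through the ES IPs alone, so its call is no separate support. Without any 1 of the ES IP libraries it no longer passed the filter on low counts and was not tested. Gbp11 and Irf2bp1 were also above JL IP in every ES IP library without passing the test (log2 fold change 1.95 ± 0.99, adjusted p = 0.114 and log2 fold change 0.31 ± 0.17, adjusted p = 0.142). Without JL IP replicate 2 Gbp11 was called higher (log2 fold change 4.54, adjusted p = 0.00483). Irf2bpl was lower in ES IP (log2 fold change -0.51 ± 0.17, adjusted p = 0.0223), a call lost without JL IP replicate 1 (adjusted p = 0.0667), JL IP replicate 3 (adjusted p = 0.0776) or ES IP replicate 3 (adjusted p = 0.0992). The lower call of Oas1g (log2 fold change -2.28 ± 0.83, adjusted p = 0.0355) was lost whichever library was left out (adjusted p between 0.0603 and 0.1386). It was lost too with DESeq2 (adjusted p = 0.0797), no filter (adjusted p = 0.1295) and the replicate block (adjusted p = 0.1031). Ifi27l2a lost its lower call without ES IP replicate 2 (adjusted p = 0.0536). The markers of other leukocytes summed to 9.31 to 12.5 CPM in the ES IPs, 6.27 to 11.1 CPM in the JL IPs and 23.3 to 26.3 CPM in the JL inputs. Cd3d, Cd8a, Ms4a1, Nkg7, S100a8 and Plac8 were at 0 in the JL IPs. Of these, Cd3d, Cd8a and Ms4a1 were at 0 in the ES IPs too, and Ms4a1 also in the JL inputs. Only 4 of the leukocyte markers were tested for JL IP against JL input: 1 was called higher, 2 lower and 1 in neither direction. Of all tested genes, 36.7% were called higher and 37.4% lower there.

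ES IP was also above JL input for most members. Of 67 tested members, 59 were higher, 1 was lower and 7 were called in neither direction, where 26.9% and 25.3% of all 17477 tested genes were called higher and lower. The median log2 fold change was 2.30, against 0.00 over all tested genes and 4.79 for the pan-endothelial list. The groups did not overlap for 60 members that were higher and 1 that was lower, where 32.0% and 32.2% of all tested genes separated. Gbp8 passed the filter through the ES IPs and had 1, 1 and 3 counts in the JL inputs. It had 2.11, 0.831 and 1.45 CPM in the ES IPs, 0.719, 1.31 and 0.236 CPM in the JL IPs, and 0.0196, 0.0200 and 0.0652 CPM in the JL inputs. Every ES IP library lay above every JL input library (log2 fold change 5.31 ± 0.63, adjusted p = 0.000289). As the filter admitted Gbp8 through the higher group, this separation and call are no separate support. The member called lower, Ifitm7 (log2 fold change -2.13 ± 0.60, adjusted p = 0.0166), lost the call without JL input replicate 2 (adjusted p = 0.0672) or replicate 3 (adjusted p = 0.0564). Of the 60 calls, 8 were lost under at least 1 alternative: Stat2, Ifit2, Rsad2, Dhx58, Gbp11, Ifi204, Ifi30 and Ifitm7. This comparison crosses investigators, and the fraction and the investigator cannot be told apart in it. The 3 comparisons share libraries, so their results are not independent.

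The replicates of a group did not vary in the same way for every family. In the JL IPs, replicate 2 was the highest library for 16 of the 16 tested GTPases, with a median ratio of 1.60 to the mean of the other 2 replicates. It was highest in 8 of 18 pan-endothelial genes, with a median ratio of 1.01, and in 31.8% of all tested genes. For the Ifit genes it was highest in 3 of 3 (median ratio 1.29), for the Oas genes in 5 of 7 (1.16), for the Ifitm genes in 2 of 5 (0.946) and for the Isg15 system in 0 of 2 (0.937). Iigp1, an immunity-related GTPase, is an example, with 92.1, 166 and 79.3 CPM in JL IP replicates 1, 2 and 3. Without replicate 2 the median log2 fold change of the tested GTPases in JL IP over JL input was 5.46 in place of 5.71, and 14 of 16 were again called higher.

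In the ES IPs, replicate 1 was the highest library for 51 of 67 tested members, for 15 of 18 pan-endothelial genes and for 44.1% of all tested genes. Its median ratio to the mean of the other 2 replicates was 1.42 over the members, 1.63 over the GTPases and 1.29 over the pan-endothelial genes. ES IP replicate 2 was the lowest for several families, with a median ratio of 0.582 for the GTPases and 0.518 for the Isg15 system, against 0.997 for the pan-endothelial genes. The labels give no batch, mouse or date to set beside these libraries.

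**Figure D5:**
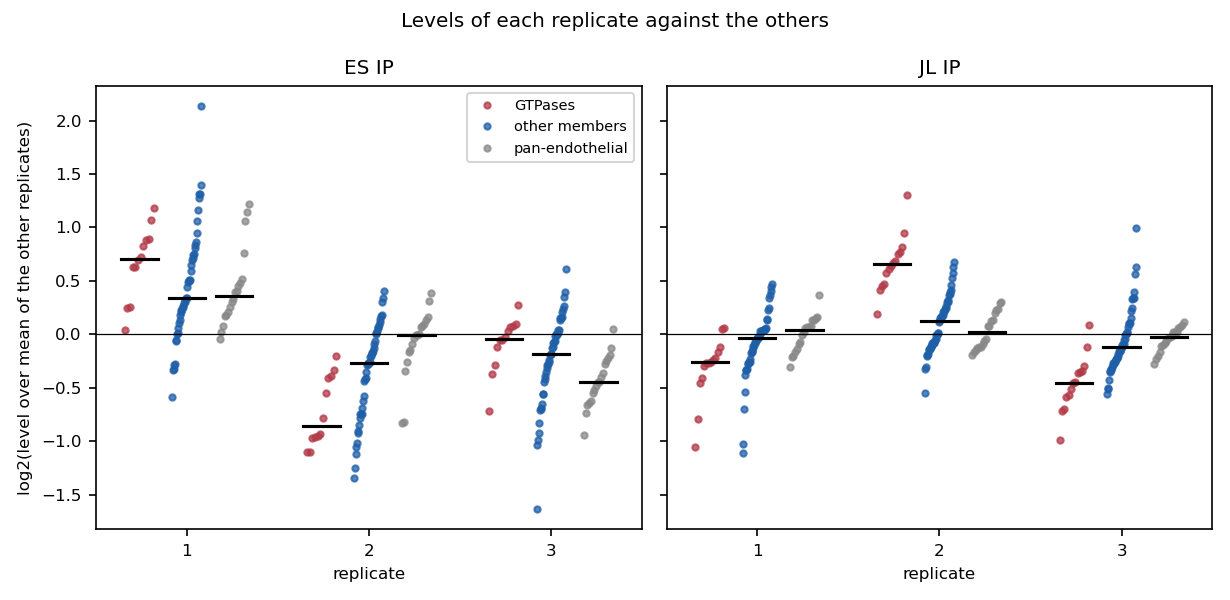
Ratio of each replicate's level to the mean of the other replicates of its group, on a log2 scale, for members and pan-endothelial genes with a group mean of at least 1 CPM in the ES IPs (left) and the JL IPs (right). Points are genes and black lines are medians. In JL IP replicate 2 every GTPase lies above 0 while the pan-endothelial genes centre near 0.

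The rest of the pathway was measured with the same fits. None of the 21 interferon ligand genes passed the filter: none had a count in the JL IPs, and their sum was at most 0.131 CPM in an ES IP library and 0.0981 CPM in a JL input library. No count fell on 18 of the 21 in the ES IPs or on 17 of the 21 in the JL inputs, Ifnb1 among them. For scale, 3 counts over the JL IPs correspond to 0.0321 CPM.

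Of 6 receptor subunits, 4 of the 5 tested were higher in JL IP than in JL input. Ifnar1 had 52.8, 41.6 and 52.0 CPM in the ES IPs, 228, 237 and 206 CPM in the JL IPs, and 30.8, 31.7 and 31.9 CPM in the JL inputs (log2 fold change 2.83 ± 0.08, adjusted p = 1.19e-08), and Ifnar2 had 38.6, 29.4 and 24.7 CPM in the ES IPs, 195, 190.0 and 179 CPM in the JL IPs, and 13.2, 14.5 and 12.2 CPM in the JL inputs (log2 fold change 3.82 ± 0.09, adjusted p = 5.46e-09). Il10rb, which serves interferon lambda and interleukin 10, changed most, with 13.8, 8.77 and 7.25 CPM in the ES IPs, 86.7, 73.5 and 78.1 CPM in the JL IPs, and 2.02, 2.11 and 2.22 CPM in the JL inputs (log2 fold change 5.23 ± 0.12, adjusted p = 3.86e-09). Ifngr1 was 5.87-fold higher. Ifngr2 was called in neither direction, with 34.4, 26.2 and 28.4 CPM in the ES IPs, 51.0, 50.3 and 35.6 CPM in the JL IPs, and 43.5, 42.1 and 44.5 CPM in the JL inputs (log2 fold change 0.08 ± 0.14, adjusted p = 0.641). Without JL IP replicate 3, the lowest of its group, Ifngr2 was called higher (log2 fold change 0.23, adjusted p = 0.0234). Ifnlr1 was not tested because its counts were low.

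Of the Janus kinases, Jak2 (log2 fold change 1.51 ± 0.10, adjusted p = 1.49e-06) and Tyk2 (log2 fold change 2.15 ± 0.15, adjusted p = 1.92e-06) were higher in JL IP than in JL input. Jak1 had 109.6, 174 and 129 CPM in the ES IPs, 126, 139.6 and 123 CPM in the JL IPs, and 117, 116 and 111 CPM in the JL inputs, and the log2 fold change was 0.18 ± 0.07, adjusted p = 0.0556, a value called without JL IP replicate 1 (adjusted p = 0.0473) or replicate 3 (adjusted p = 0.0178). Its JL IP libraries lay above every JL input library by a small margin, and scaling by library size alone turned the direction to -0.08. Of 6 negative regulators 2 were called higher, a share near the 36.7% of all tested genes, with the largest value for Socs3 (2.94 ± 0.31), and Ptpn6 had the smallest value (-0.49 ± 0.77, not called, but -1.91 with an adjusted p of 0.0169 and called lower without JL IP replicate 2). Of 13 genes of nucleic acid sensing 9 were higher, led by the Z-form nucleic acid sensor Zbp1 (6.52 ± 0.53), and 2 were lower. Tlr9, the endosomal DNA receptor, had no count in the JL IPs and was at least 31.7-fold lower there than in JL input.

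Among 37 further interferon-induced genes outside the symbol rule, 34 were higher in JL IP than in JL input, 1 was lower and 2 were called in neither direction, with a median log2 fold change of 4.14. Slfn5, a Schlafen family gene, had the largest change (55.1, 52.5 and 43.0 CPM in the ES IPs, 476, 504 and 394 CPM in the JL IPs, and 2.43, 2.77 and 1.35 CPM in the JL inputs, log2 fold change 7.70 ± 0.24, adjusted p = 1.97e-08). Ccl5, a chemokine of leukocytes, was the lower one: it had no count in the JL IPs and was at least 14.6-fold below JL input. Adar, an RNA editing enzyme, was called in neither direction (log2 fold change -0.18 ± 0.08, adjusted p = 0.0697). In ES IP against JL IP, 34 of 36 were lower and Adar was higher (log2 fold change 0.73 ± 0.17, adjusted p = 0.00339). The list was chosen with earlier results of these data known and is not independent of them.

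Scaling by library size alone, with no factor for composition, moved the median of all genes by -0.26 on the log2 scale for JL IP against JL input and by -0.11 for ES IP against JL input. Of the members' directions, it turned only that of Mx2 in ES IP against JL input, a value near 0 that was not called. Of the 80 members, 11 were tested in no comparison, and 9 had no count in the JL IPs. Those outside every test with the most counts were Oas3, Ifitm6 and Ifi27l2b, all under 1 CPM in every library.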

How the data were processed

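The 9 libraries were grouped by the investigator and fraction given in the labels. Per the submitters' processing notes, STAR 2.0.0e, HTSeq and build mm10 were used. Annotation, strandedness and filters were not given in the sources used here. The authors deposited raw read counts per gene for each library, whose summary rows (no feature, ambiguous, not unique) stayed out of library sizes and tests. Of gene, no-feature and ambiguous counts together, the ambiguous row held 2.04 to 2.54% in IP libraries and 10.3 to 11.3% in the JL inputs. Per gene count, the not-unique row was 0.953 to 1.43 in the ES IPs and 1.80 to 2.05 in the JL IPs. In the JL inputs it was 0.610 to 0.635. Genes that overlap or share sequence may thus be undercounted unequally, and the genes behind these rows are not given.

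Levels are counts scaled to library size (CPM) with TMM factors over the 9 libraries. Each comparison was fitted on its own 6 libraries with edgeR 4.0.16 (R 4.3.3, filterByExpr, TMM, glmQLFTest, two-sided, Benjamini-Hochberg adjustment over all tested genes, threshold 0.05). The same fit was run on simulated data in which few genes were changed, as many up as down. That run cannot show how the fit behaves where most genes differ, as for JL IP against JL input. Each standard error was obtained as the log2 fold change over the root of its F statistic. Alternatives were median-ratio factors, library size alone, no filter, DESeq2 1.42.0, 1 fit over 9 libraries, a replicate block and leaving out each library.

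The members and lists were chosen with earlier results of these data known. Named with full values were, per role, the 2 tested members with the highest JL IP level per kilobase, those with the largest and smallest fold change of JL IP over JL input, and members called lower there, called in neither direction, or called higher in ES IP than in JL IP. Other named members, such as Irf7, Irf9, Gbp6, Gbp8 and Iigp1, were chosen after their values were seen. Gene positions, exon lengths and shared 50-base words came from GENCODE M21 (GRCm38), and promoters from RefSeq. The check of shared words was chosen after seeing the data. The values of 2 members are not reported here, although they enter the counts.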

Additional observations from a re-analysis of the deposited data

How the results depend on the processing

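The counts of members called in the main direction of each comparison stayed within 1.5 times under every alternative run. Leaving out 1 library at a time gave 60 to 61 higher for JL IP against JL input, 55 to 56 lower for ES IP against JL IP and 53 to 57 higher for ES IP against JL input. The few calls in the other direction varied. For JL IP against JL input, 1 lower became 3 with no filter on low counts and 0 to 4 with 1 library left out. For ES IP against JL IP, 2 higher became 1 with no filter and 0 to 2 with 1 library left out. For ES IP against JL input, 1 lower became 0 with all 9 libraries in 1 fit and 0 to 2 with 1 library left out. Over all genes, leaving out 1 library gave 5848 to 6571 higher and 5629 to 7130 lower for JL IP against JL input, 4149 to 4910 and 3820 to 4994 for ES IP against JL IP, and 3453 to 5819 and 3254 to 5513 for ES IP against JL input.

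The correlation of same-numbered deviations was at most 0.093. For JL IP against JL input it was 0.077, 0.044 and 0.077, above the best other numbers (-0.037, -0.006 and -0.004). In ES IP against JL IP, replicate 2 went the other way (-0.04 against 0.114). Values this small from 3 libraries per group cannot settle whether equal replicate numbers pair the libraries. With the replicate block, 1 member was called higher in ES IP than in JL IP in place of 2, since Irf8 had an adjusted p of 0.0603 (edgeR). Irf8 also lost that call with no filter (adjusted p = 0.0534).

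Directions that reversed belonged to values that were not called, and the cause was not tested. With library size alone, log2 fold changes became -0.19 for Ifngr2 and -0.081 for Jak1 in JL IP against JL input, and -0.018 for Mx2 and -0.029 for Jak2 in ES IP against JL input. In ES IP against JL IP, Ifitm10 became -0.045 with all 9 libraries in 1 fit and Ifnlr1 0.31 with the replicate block. With 1 library left out, Oas2 ranged from -0.30 to 1.55 and Ifngr2 from -0.0048 to 0.23 in JL IP against JL input. In ES IP against JL IP the ranges were -0.12 to 0.25 for Ifitm10, -1.81 to 0.044 for Oas2, -1.71 to 1.66 for Ifnlr1, -0.030 to 0.32 for Jak1 and -0.015 to 1.84 for Ptpn6. In ES IP against JL input they were -0.44 to 0.057 for Gbp6, -0.28 to 0.51 for Mx2, -0.28 to 0.14 for Ifngr1, -0.010 to 0.23 for Jak2 and -0.38 to 0.13 for Ptpn6. Low counts limit Oas2, Mx1, Ifitm7 and Gbp11. Without Cd34 in the pan-endothelial list, 38 members lay within the range in ES IP against JL IP.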
